A study of Mus musculus with 5 samples.

Results

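Chromatin modifying and remodelling enzymes were followed by RNA sequencing in regulatory T cells (Tregs), a class of CD4 T cells that depends on the factor Foxp3 and keeps other immune cells in check. Genes were taken by name from the deposited count table: the histone lysine demethylases (Kdm1 to Kdm8), the methyltransferases named Kmt2, Kmt5, Setd or Ezh, the Smarc genes of the SWI/SNF and related remodellers, the class I, II and IV histone deacetylases (Hdac), the sirtuins (Sirt) and the Chd remodellers. The rule took 79 of 24084 genes and used no measured value. It also took 2 genes that belong to none of these families, Smarca5-ps, a processed pseudogene, and Chd3os, a neighbour of Chd3 that newer annotation calls Rnf227, so 77 are family genes. No gene named Kmt5 was found, but Setd8, which newer annotation calls Kmt5a, was taken under its older name.

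The Tregs were sorted from Foxp3-DTR/GFP mice aged 13 days, whose Foxp3 locus expresses, besides Foxp3, the receptor for diphtheria toxin and a green fluorescent protein. All 5 libraries carry this allele, and the labels name no treatment. One group held 3 libraries from skin-draining lymph nodes and the other 2 libraries from skin. The labels do not say how many mice were pooled or whether libraries came from separate animals, so a p-value here speaks to the spread among 5 libraries, part of which may be technical.

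Histones carry small chemical groups that these enzymes add or remove. Methyltransferases and demethylases set lysine methylation, which marks active or silent genes according to the residue, while deacetylases and sirtuins remove acetyl groups and generally close chromatin. Chd proteins and most Smarc ATPases use ATP to slide or evict nucleosomes, and other Smarc proteins are core or accessory subunits of such complexes. In Tregs, Ezh2, the catalytic subunit of Polycomb repressive complex 2, is known to be needed for stable identity after activation, and deacetylases and Sirt1 also act on the Foxp3 protein itself.

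Lymph node libraries held 12305644 to 14595018 gene counts and skin libraries 10787378 and 10468795, and fewer genes had a count in skin (9894 and 9192) than in lymph node (12173 to 12540). Values are CPM (counts relative to the TMM-scaled library size), differences are skin relative to lymph node on the log2 scale, and the threshold is an adjusted p of 0.05 in edgeR's quasi-likelihood test over all genes tested. Treg markers summed to 12130 to 14160 CPM in lymph node and 13070 and 15780 CPM in skin. Foxp3 was at 94.6 ± 5.08 CPM (SD, n = 3) and 97.6 ± 28.1 CPM (n = 2). Single Treg markers differed: of 12 tested, 2 were higher and 1 lower. Ctla4 rose from 643 to 820 CPM to 2576 and 2193 CPM (adjusted p = 0.027 by edgeR). Ikzf2 rose from 1304 to 1354 CPM to 2137 and 2763 CPM (0.048). Nrp1 fell from 442 to 596 CPM to 90.1 and 54.5 CPM (0.033). Skin lay below all lymph node values for 6 of the 12, Cd3e, Cd3g and Cd3d among them, and above them for 3. Markers of other cells also differed. The 20 myeloid markers summed to 592 to 1084 CPM in lymph node and to 5905 and 8702 CPM in skin, with 8 of 16 tested members higher, 0 lower and 7 without a count in any lymph node library. Keratinocyte markers were at 4.38 to 5.97 CPM against 150 and 149 CPM, and fibroblast markers at 5.56 to 13.8 CPM against 89.5 and 10.4 CPM. Krt14 (68.7 and 109 CPM) and Krt17 (45.1 and 33.2 CPM) made up most of the keratinocyte sum in skin, and Krt10 fell to no count. Sparc (84.4 and 8.07 CPM) made up most of the fibroblast sum in skin. Dpt fell from 4.77 to 10.1 CPM to 0.187 and 0.299 CPM, and the other fibroblast markers lay at or under 3.55 CPM in every library. B cell markers (82.0 to 228 CPM against 22.04 and 72.1 CPM) and CD8, NK and gamma-delta T cell markers (44.4 to 69.4 CPM against 22.1 and 0 CPM) lay lower in skin. Endothelial markers did not move as 1 list: Pecam1, which made up nearly all of the lymph node sum, was at 351 to 499 CPM against 55.8 and 2.89 CPM (adjusted p = 0.110 by edgeR), and Lyve1 rose from no count to 41.9 and 90.2 CPM (adjusted p = 0.0452). Mast cell and granulocyte markers were at 9.63 to 24.9 CPM against 12.8 and 0 CPM, and melanocyte markers at 22.2 to 37.0 CPM against 9.15 and 0 CPM. Of the 6 red cell and platelet markers 4 had no count, Gata1 fell from 91.2 to 133 CPM to no count in skin, and Pf4 rose from no count to 99.9 and 200.1 CPM (adjusted p = 0.0224 and 0.0381 by edgeR). Immediate early and stress genes summed to 1336 to 1591 CPM in lymph node and 3542 and 3374 CPM in skin (5 of 20 higher, 1 lower), and cell cycle genes to 1529 to 1776 CPM and 3371 and 4037 CPM (3 of 20 higher). Chromatin enzymes are made by all of these cells, and the part of other cells or of tissue handling in the results below was not tested. Fewer cells that express a gene and less of its RNA per cell cannot be told apart in bulk libraries.

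Few single chromatin enzymes passed the test between skin and lymph node Tregs. Of the 79 genes, 75 passed the filter on low counts, and of these 2 fell in skin (Kdm8 and Setdb2), 0 rose and 73 did not pass. This is 2.67% of the tested members, where 7.70% of all 11437 tested genes passed (5.30% lower and 2.40% higher). At an unadjusted p under 0.05, 7 members were higher and 7 lower of 75, where 10.1 and 19.4% of all tested genes were. DESeq2 called 3 higher and 7 lower of 77 members (13.0%, against 26% of all genes it tested), and limma-voom 1 higher and 6 lower of 75 (9.33%, against 19.5%). Of the 57 members whose average log2 CPM reached 5, 0 passed in edgeR, against 6.89% of all genes at that level. The median log2 fold change of the tested members was 0.02, beside -0.21 over all tested genes, and 38 members had a positive and 37 a negative value. With an offset for exon length, given below, the member median was not above that of all genes. The family genes took 0.580 to 0.702% of gene counts in lymph node and 0.730 and 0.721% in skin. The 4 genes that did not pass the filter were Chd5, Hdac11, Kdm4d and Smarca1. Smarca1, the remodelling ATPase SNF2L, had no count in any library, Hdac11 lay at or under 0.469 CPM, Chd5 at or under 1.02 CPM and Kdm4d at or under 2.66 CPM.

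**Figure D1:**
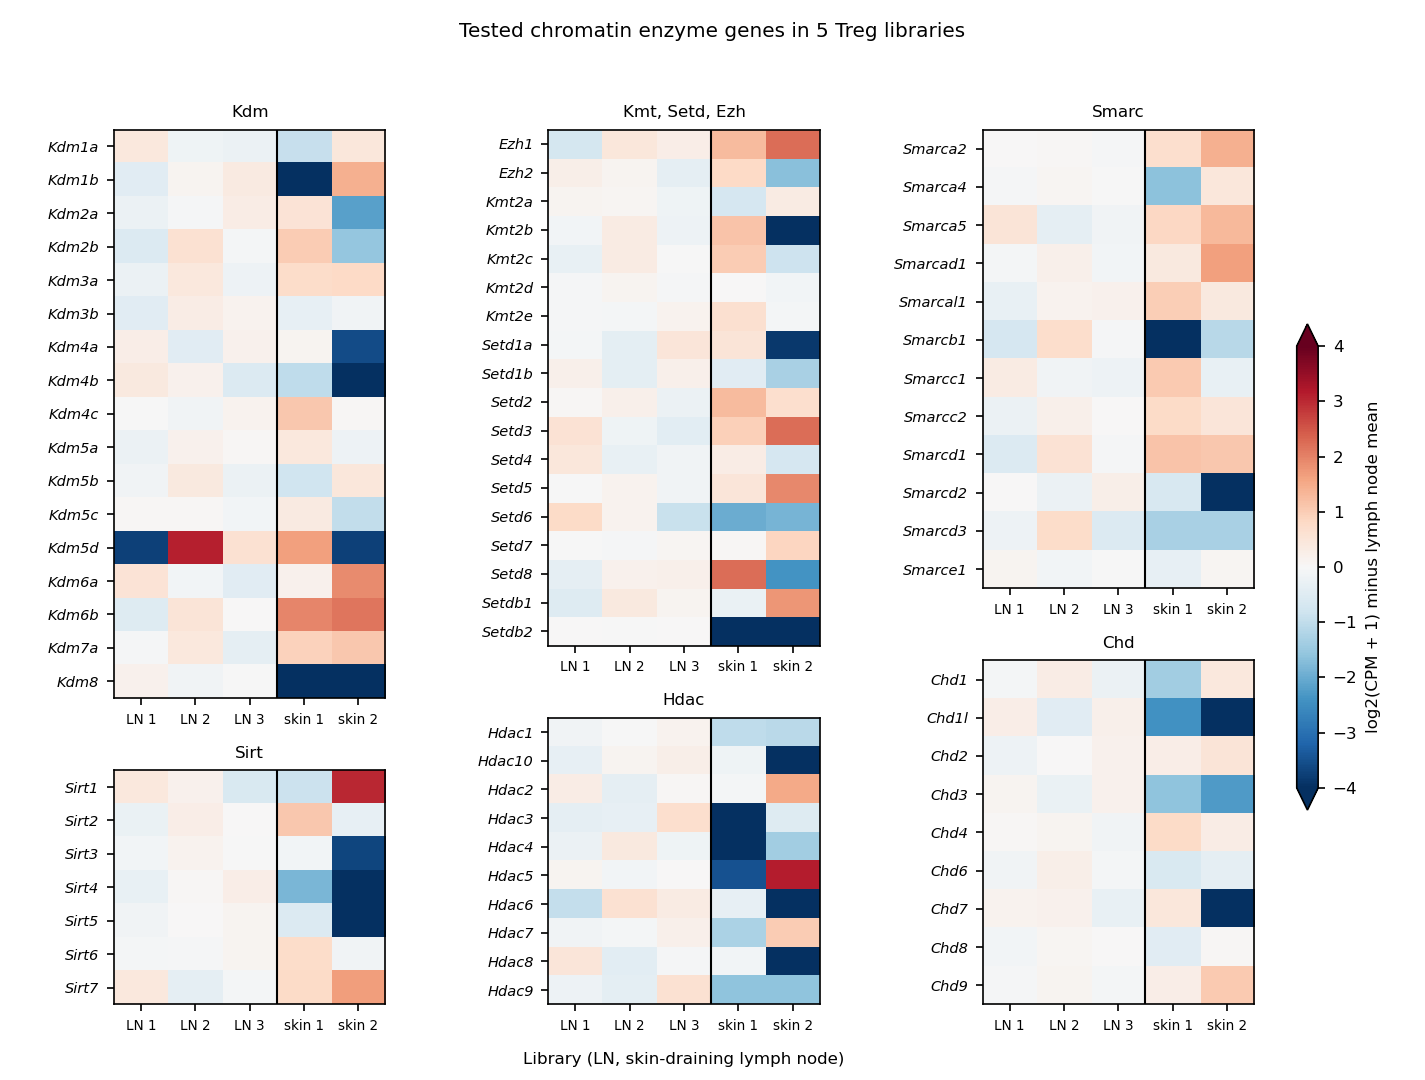
Each row is a tested family gene and each column a library (LN, skin-draining lymph node). Color gives log2(CPM + 1) minus the mean of the 3 lymph node libraries, with values beyond 4 shown at the end of the scale. The lymph node columns are pale for nearly all genes, and the skin columns hold strong colors that often differ between the 2 skin libraries.

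The 2 genes that fell were a demethylase family member and a methyltransferase. Kdm8 (JMJD5; chromosome 7, 125444676 to 125462269, mm10) encodes a JmjC-domain oxygenase first described as a histone demethylase. It was at 18.8, 15.02 and 16.6 CPM in the lymph node libraries and had no count in either skin library. Both skin values lay below all lymph node values, and the gene was at least 117-fold lower against the 3 counts that a count of 0 over the skin group allows (adjusted p = 0.0456 by edgeR's quasi-likelihood test). Setdb2 (chromosome 14, 59402009 to 59440884) encodes a SET-domain enzyme that methylates a repressive lysine of histone H3. It was at 39.9, 39.2 and 40.7 CPM in lymph node and at 0.187 and 0 CPM in skin, where 2 counts were found in all, or 415 times less than in lymph node (95% interval from counting error 115 to 3426; adjusted p = 0.0463 by edgeR). Its lymph node values were nearly equal, and the skin values were at the level of single counts.  Both calls ended on leaving out any 1 of the lymph node libraries (adjusted p from 0.113 to 0.116 by edgeR). They also ended without a filter on low counts (0.0550 for Kdm8 and 0.0538 for Setdb2) and with robust dispersions (0.0546 for both). Calls over all genes fell as well, from 7.70% to 0% with a lymph node library left out, 2.21% without the filter and 1.93% with robust dispersions. Counting intervals and floors cover counting error only, not transcripts lost before sequencing.

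Promoters of the 2 genes are shown because these are the members that passed the test, and because Setdb2 starts 88 bases from the divergent gene Cab39l. The windows are the 250 bases before the start in RefSeq's GRCm38.p6 annotation, 5′ to 3′ on the gene's strand, chr7:125444370-125444619 on the plus strand for Kdm8 and chr14:59440881-59441130 on the minus strand for Setdb2. Capitals mark matches, on either strand, to CCAAT (the NFY word) and CCGGAA (an ETS word).
Kdm8: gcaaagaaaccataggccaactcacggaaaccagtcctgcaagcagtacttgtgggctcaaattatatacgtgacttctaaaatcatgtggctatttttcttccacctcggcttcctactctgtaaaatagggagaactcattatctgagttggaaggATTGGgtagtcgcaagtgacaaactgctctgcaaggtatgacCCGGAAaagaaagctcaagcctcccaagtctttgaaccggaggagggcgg
Setdb2: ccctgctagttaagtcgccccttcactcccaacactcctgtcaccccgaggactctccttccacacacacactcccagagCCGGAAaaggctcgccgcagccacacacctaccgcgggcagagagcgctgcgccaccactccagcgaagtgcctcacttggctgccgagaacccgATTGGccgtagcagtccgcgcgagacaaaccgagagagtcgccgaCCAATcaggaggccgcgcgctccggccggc
Both windows hold the ETS word once, and the NFY word occurs once in Kdm8 and at 2 places in Setdb2. They differ in base composition, with 46.8% G and C and a CpG observed to expected ratio of 0.512 for Kdm8, against 65.6% and 0.943 for Setdb2. In windows of 300 bases (250 before and 50 after the start), found for 61 of the 77 family genes, the NFY word was in 39.3% of members and 37.4% of all 32851 promoters, and the ETS word in 29.5 and 14.9%. E2F words (TTGGCGC or TTCCCGC) were in 8.20 and 6.81%, and the NRF1 word (GCATGCG) in 9.84 and 3.58%. Among the promoters of tested genes these shares were 39.5% (NFY), 30.7% (ETS), 12.8% (E2F) and 7.06% (NRF1). A CpG ratio of 0.6 or more was found in 53 of the 61 members (86.9%), against 73.4% of tested genes and 35.8% of all promoters. A match is a description of the sequence and not evidence of binding.

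Neighbouring genes were read beside the 2 calls. Next to Kdm8, 5371 bases away, Nsmce1, a subunit of a chromosome maintenance complex, had 4694, 2772 and 3396 counts in lymph node and 451 and 72 in skin. Cab39l, which shares the Setdb2 start region, had 1678, 1473 and 1700 counts in lymph node and 2416 and 1402 in skin. Phf11c, 6628 bases from Setdb2 on the same strand, had 1374, 720 and 1789 counts in lymph node and none in skin. Neither Kdm8 nor Setdb2 shares exon bases with another gene of the table, but 17 other members do, 13 of them with a gene on the opposite strand. The strand setting and options of the counting are not known. Reads over shared bases may thus have been counted to either gene or to none.

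Beyond these calls, several members had skin values outside the lymph node range without passing the test. The groups did not overlap, with skin higher, for 18 tested members (24.0%; 16.8% of all tested genes) and, with skin lower, for 17 (22.7%; 33.5% of all tested genes), and the other 40 overlapped. The share below was thus smaller and the share above larger than among all genes, which is a description and was not tested. Those described next came closest to the threshold or are the leading genes of their family.

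**Figure D2:**
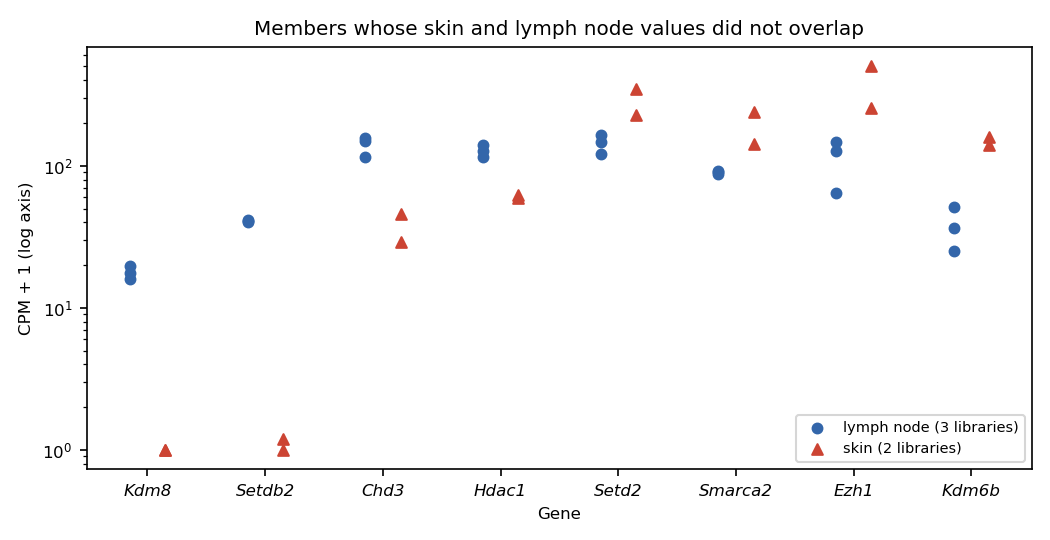
CPM + 1 on a log axis for 8 members, with each circle a lymph node library and each triangle a skin library. Skin values of Kdm8, Setdb2, Chd3 and Hdac1 lie below all lymph node values, and those of Setd2, Smarca2, Ezh1 and Kdm6b above them; Kdm8 and Setdb2 passed the test.

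Among the demethylases, 17 of 18 genes were tested, and 1 fell (Kdm8), 0 rose and 16 did not pass (2 higher and 1 lower at an unadjusted p under 0.05; DESeq2 and limma-voom also called Kdm6b higher). Kdm6b (JMJD3), which removes the Polycomb mark from histone H3 and is induced by inflammatory signals in many cells, was at 24.1, 50.6 and 35.6 CPM in lymph node and 139 and 157 CPM in skin. The skin libraries lay close together and well above the lymph node range (log2 difference 2.01 with SE 0.46, adjusted p = 0.0546 by edgeR, 0.00126 by DESeq2 and 0.0195 by limma-voom for Kdm6b). Myeloid markers and immediate early genes were also higher in these skin libraries, as given above, and their part in the Kdm6b values was not tested. Kdm7a, a demethylase of repressive marks, was at 51.7 to 90.5 CPM in lymph node and 129 and 143 CPM in skin, and Kdm3a, a demethylase known to respond to hypoxia, at 101 to 160.1 CPM and 197 and 205 CPM (adjusted p = 0.169 and 0.213). Kdm4b lay below the lymph node range (19.1 to 38.0 CPM against 13.6 and 0.199 CPM; adjusted p = 0.469).
Kdm5a, which removes methyl groups from the promoter mark of active genes, was the demethylase gene with the most counts, at 348, 455 and 423 CPM in lymph node and 542 and 356 CPM in skin (log2 difference 0.14 with SE 0.27, adjusted p = 0.803). Kdm1a, Kdm3b, Kdm5b and Kdm5c also stayed within 2-fold of the lymph node mean in both skin libraries. Kdm1b and Kdm2b went in opposite directions in the 2 skin libraries, Kdm1b with 0.280 and 89.7 CPM against a lymph node range of 23.6 to 41.9 CPM and Kdm2b with 95.4 and 15.04 CPM against 31.5 to 71.1 CPM. Kdm2a, Kdm4a and Kdm4c overlapped between the groups as well (adjusted p from 0.382 to 0.8801).

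The sex-linked demethylases separated libraries rather than tissues. Kdm5d, on chromosome Y, was at 0, 115 and 19.5 CPM in the lymph node libraries and 40.4 and 0 CPM in the skin libraries (adjusted p = 0.857). Other Y-linked genes followed a similar order. Ddx3y was at 0.0701, 303 and 137 CPM in lymph node and 145 and 48.8 CPM in skin, while Eif2s3y was at 0, 276 and 171 CPM and 50.9 and 6.28 CPM. Uty, the Y-linked relative of Kdm6a, was at 0, 92.3 and 43.6 CPM and 17.3 and 1.40 CPM. Xist, the RNA of the inactive X chromosome, ran the other way, at 296, 0 and 81.4 CPM in lymph node and 41.7 and 411 CPM in skin. Lymph node library 1 thus held next to no Y-linked RNA, lymph node library 2 held no Xist, and the other 3 libraries held both. Kdm6a (UTX), an X-linked demethylase of the Polycomb mark known to escape X inactivation, was at 78.3, 49.9 and 39.0 CPM in lymph node and 60.0 and 199.5 CPM in skin (log2 difference 1.22 with SE 0.63, adjusted p = 0.273). Its highest value in each tissue was in the library with the most Xist. Kdm5c, which also escapes X inactivation, did not follow Xist, with 86.7, 86.9 and 76.5 CPM in lymph node and 106 and 41.9 CPM in skin (adjusted p = 0.876). The labels give no sex, and the part of sex in other members was not tested.

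**Figure D3:**
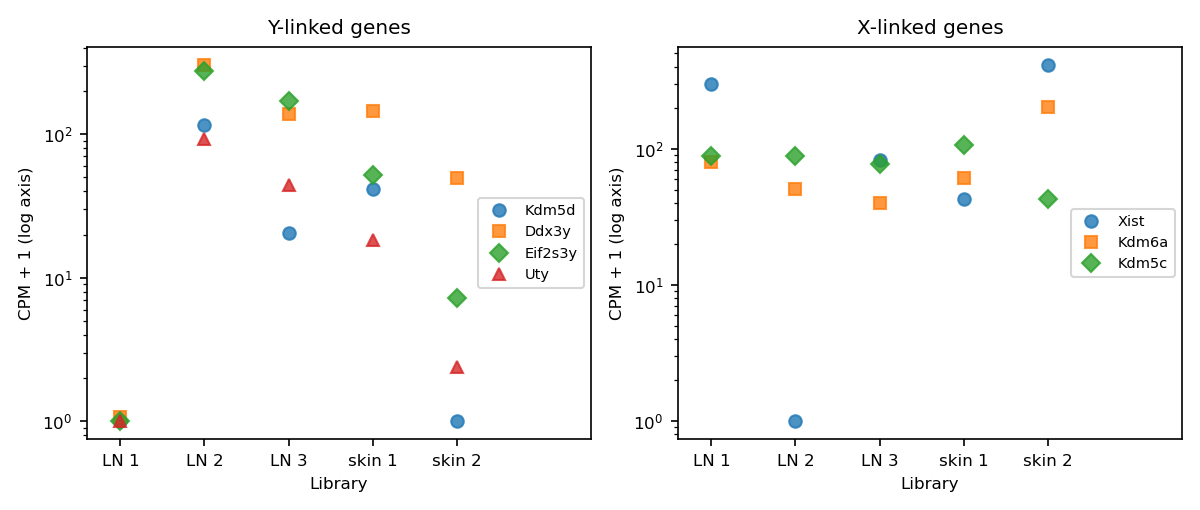
CPM + 1 on a log axis in each library for Y-linked genes (left) and for Xist, Kdm6a and Kdm5c (right). Kdm5d is at 0 CPM in lymph node library 1 and skin library 2, the libraries in which Xist is highest within each tissue (296 and 411 CPM).

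Of the 18 methyltransferase genes, all were tested, and 1 fell (Setdb2), 0 rose and 17 did not pass (3 higher and 2 lower at an unadjusted p under 0.05; DESeq2 also called Ezh1 higher and Setd6 lower, and limma-voom Setd6 lower). Ezh1, the Polycomb methyltransferase typical of resting cells, was at 63.4, 145 and 125 CPM in lymph node and 253 and 501 CPM in skin. Both skin values exceeded the lymph node range, by different amounts (log2 difference 1.76 with SE 0.48, adjusted p = 0.0727 by edgeR, 0.0351 by DESeq2 and 0.0600 by limma-voom for Ezh1). Ezh2, its relative in dividing and activated cells, was at 73.3, 67.8 and 48.5 CPM in lymph node and at 109 and 18.9 CPM in skin, above the lymph node range in 1 skin library and below it in the other (log2 difference 0.02 with SE 0.80, adjusted p = 0.991). Without skin library 1 the Ezh2 value became -1.74, in a fit with 1 skin library and no spread within skin. The tissue difference of Ezh2 thus depended on 1 library. Setd2, which lays down a mark along transcribed gene bodies, was at 147, 165 and 120 CPM in lymph node and 346 and 226 CPM in skin (log2 difference 0.99 with SE 0.30, adjusted p = 0.0945). Setd5 (59.8 to 73.8 CPM against 93.6 and 256 CPM) and Setd3, which methylates actin (15.6 to 32.5 CPM against 42.4 and 104 CPM), also lay above the lymph node range (adjusted p = 0.130 and 0.177). Setd1b, of the complexes that methylate active promoters, lay below it at 53.5 and 29.5 CPM against 55.8 to 85.7 CPM, and Setd6, a methyltransferase of the NF-kB subunit RelA, had 1 count in skin against 1.15 to 5.75 CPM (adjusted p = 0.357 and 0.0898).

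The large Kmt2 genes, whose products methylate histone H3 at active promoters and enhancers, overlapped between the tissues. Kmt2e, an atypical member of this group, had the highest level per kilobase of exon of the family genes in both tissues (47.1 ± 3.64 CPM per kb, n = 3, and 58.8 ± 20.4 CPM per kb, n = 2), with 474, 465 and 535 CPM in lymph node and 764 and 463 CPM in skin (adjusted p = 0.499). Kmt2d was at 155, 172 and 153 CPM and 161 and 147 CPM, among the smallest differences of all members (log2 difference -0.05 with SE 0.25, adjusted p = 0.927). Kmt2a was at 219 to 267 CPM against 155 and 310.2 CPM and Kmt2c at 203 to 317 CPM against 512 and 142 CPM, so each had a skin library on either side of the lymph node range. Kmt2b was at 53.1 to 76.7 CPM in lymph node, and in skin at 137 CPM and at 0.199 CPM (2 counts). Setd8, which methylates histone H4 and is regulated with the cell cycle, had a similar split, with 97.3 and 2.99 CPM in skin against 15.4 to 23.1 CPM. Setd1a was also near 0 in skin library 2 alone (26.1 and 0.299 CPM in skin against 13.4 to 25.4 CPM), whereas Setdb1, a silencer of retroelements, was at 59.2 and 243 CPM against 49.4 to 93.5 CPM. Setd4 and Setd7 stayed within 2-fold of the lymph node mean in both skin libraries. None of these differences passed the test (adjusted p from 0.370 to 0.972).

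Among the Smarc genes, 12 of 13 were tested and 0 passed in either direction (1 higher and 1 lower at an unadjusted p under 0.05; DESeq2 called Smarca2 higher and Smarcd3 lower, limma-voom Smarcd3). In 6 of the 12 skin exceeded lymph node without overlap and in 3 it lay lower, where 16.8 and 33.5% of all tested genes did. Smarca2 (BRM), 1 of the alternative ATPases of SWI/SNF, was at 89.7, 91.3 and 86.0 CPM in lymph node and 142 and 238 CPM in skin, with a narrow lymph node spread (log2 difference 1.10 with SE 0.34, adjusted p = 0.0942). Smarca4 (BRG1), the other ATPase, was at 137, 152 and 140.3 CPM in lymph node and 45.4 and 197 CPM in skin, on either side of the lymph node range (log2 difference -0.24 with SE 0.63, adjusted p = 0.856). Smarca5, the ISWI ATPase SNF2H, was at 54.2, 29.3 and 34.0 CPM in lymph node and 67.9 and 94.1 CPM in skin, and its relative Smarca1 had no count (adjusted p = 0.259 for Smarca5). Smarcad1, a remodeller linked to silent chromatin at replication, was at 41.7 to 51.9 CPM against 59.4 and 143 CPM (log2 fold change 1.16, adjusted p = 0.222). Smarcd1, an accessory subunit, was at 17.8 to 39.9 CPM against 58.6 and 57.3 CPM, Smarcc2, a scaffold subunit, at 77.4 to 106 CPM against 157 and 128 CPM, and Smarcal1, which reanneals DNA at stalled forks, at 29.4 to 40.9 CPM against 73.6 and 47.9 CPM (adjusted p from 0.264 to 0.452).
The core and accessory subunits Smarcb1, Smarcd2 and Smarcd3 lay below the lymph node range. Smarcb1 (SNF5) was at 95.4, 248 and 147 CPM in lymph node and 2.71 and 69.8 CPM in skin (log2 difference -2.17 with SE 1.31, adjusted p = 0.343). Smarcd2 was at 45.3 to 63.2 CPM against 34.5 and 0.199 CPM, and Smarcd3, at 0.678 to 3.05 CPM in lymph node, had no count in skin (adjusted p = 0.596 and 0.0830). Smarcd3 shares 2466 exon bases with Chpf2 on the opposite strand. Smarcc1 and Smarce1 overlapped between tissues. The pseudogene Smarca5-ps was at 0.939 to 1.90 CPM in lymph node and 4.95 and 3.19 CPM in skin, in the same order of tissues as Smarca5, whose reads it may share (adjusted p = 0.331).

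Of the 10 Chd genes, 9 were tested and 0 passed (0 higher and 1 lower at an unadjusted p under 0.05; DESeq2 and limma-voom called Chd3 lower). Chd3 and Chd4 encode alternative ATPases of the NuRD complex, which joins remodelling to deacetylation. Chd3 was at 148, 115 and 155 CPM in lymph node and 44.9 and 27.9 CPM in skin (log2 difference -1.93 with SE 0.42, adjusted p = 0.0523 by edgeR), with every skin value under a lymph node value. Chd4 was at 272, 282 and 236 CPM in lymph node and 445 and 321 CPM in skin (log2 difference 0.54 with SE 0.24, adjusted p = 0.214). With an offset for exon length, Chd3 passed (adjusted p = 0.0463), as 1 of 3 members called in that fit (4%, against 8.87% of all genes). Chd3 lies 29102 bases from Kdm6b on the same strand of chromosome 11, and the skin values of the pair lay on opposite sides of their lymph node ranges. Chd3os, on the other strand with its end 632 bases from the end of Chd3, was at 3.36 to 7.90 CPM in lymph node against 78.0 and 0.0996 CPM in skin (adjusted p = 0.400).
Chd2 was at 185, 216 and 238 CPM in lymph node and 254 and 305 CPM in skin, and Chd9 at 67.5 to 77.4 CPM and 84.9 and 149 CPM (adjusted p = 0.358 and 0.306). Chd6 was below the lymph node range (105 to 135 CPM against 75.3 and 89.4 CPM), Chd8 and Chd1 overlapped it, and Chd7, mutated in CHARGE syndrome, was at 61.1 to 85.1 CPM in lymph node with 103 and 3.69 CPM in skin (adjusted p from 0.400 to 0.848). Chd1l, a remodeller of the DNA damage response, was at 50.3, 30.1 and 47.9 CPM in lymph node and 7.003 and 0 CPM in skin (log2 difference -3.61 with SE 2.04, adjusted p = 0.311).

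No histone deacetylase gene passed the test. Of 11 genes 10 were tested and 0 passed (0 higher and 2 lower at an unadjusted p under 0.05; DESeq2 called Hdac1 and Hdac9 lower, limma-voom Hdac9), 4 of the 10 lay below all lymph node values (33.5% of all tested genes) and 0 above (16.8%), with a median log2 fold change of -1.18 beside -0.21 over all tested genes. Hdac1, a class I enzyme of the Sin3, NuRD and CoREST complexes, was at 114, 125 and 140.0 CPM in lymph node and 61.7 and 58.7 CPM in skin, with close values within each tissue (log2 difference -1.07 with SE 0.33, adjusted p = 0.0986). Hdac2, its close relative, was at 34.0, 21.2 and 28.6 CPM in lymph node and 26.1 and 81.0 CPM in skin (log2 difference 0.94 with SE 0.72, adjusted p = 0.463). Hdac3, the deacetylase of the NCoR complex, was at 94.3, 95.8 and 195 CPM in lymph node and at 0.374 CPM (4 counts) and 84.6 CPM in skin, so only skin library 1 lacked it (adjusted p = 0.612).
Several other deacetylase genes differed between the skin libraries. Hdac7, a known regulator of thymocytes, was at 173 ± 23.4 CPM in lymph node (n = 3) and 71.4 and 346 CPM in skin (log2 difference 0.27 with SE 0.65, adjusted p = 0.842). Hdac5 was at 9.31 to 11 CPM in lymph node and at 0 and 97.9 CPM in skin (log2 difference 2.26 with SE 2.16, adjusted p = 0.561). Hdac4 was at 52.0 to 79.3 CPM in lymph node and 2.05 and 22.4 CPM in skin (log2 difference -2.34 with SE 1.13, adjusted p = 0.241). Hdac9, which opposes Treg function in mice, was at 1.68, 1.33 and 3.66 CPM in lymph node and none in skin, which sets a bound of at least 15.7-fold lower (adjusted p = 0.0647). Hdac10 (58.5 and 0 CPM in skin), Hdac6 (18.9 and 0.299 CPM) and Hdac8 (15.2 and 0.0996 CPM) were nearly lost from skin library 2 alone, against lymph node ranges of 52.5 to 77.7, 11.98 to 37.6 and 11.9 to 23.1 CPM. Without skin library 2, the values of Hdac5 and Hdac7 turned to -10.07 and -1.28, and without skin library 1 they were 3.26 and 0.99. Each of these fits held 1 skin library and so no spread within skin.

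All 7 sirtuins, the NAD-dependent deacylases, were tested and 0 passed (1 higher and 0 lower at an unadjusted p under 0.05; DESeq2 and limma-voom called 0). Sirt2, a mostly cytoplasmic enzyme, and Sirt7, a nucleolar one, had the most counts, Sirt2 at 78.2 to 115 CPM in lymph node and 203 and 74.8 CPM in skin and Sirt7 at 64.6, 37.2 and 44.6 CPM and 81.4 and 155 CPM (adjusted p = 0.560 and 0.159). Sirt1, which deacetylates Foxp3, was at 17.7, 15.02 and 8.34 CPM in lymph node and at 6.72 and 113 CPM in skin, so that its log2 fold change of 2.13 (SE 1.19, adjusted p = 0.307) rested on skin library 2 and was -1.03 without it. Among the mitochondrial sirtuins, lymph node levels were for Sirt3 15.5 to 18.6 CPM, for Sirt4 13.1 to 19.9 CPM and for Sirt5 33.6 to 40.3 CPM. In skin they were at 15.6 and 0.399 CPM (Sirt3), 3.92 and 0 CPM (Sirt4) and 25.2 and 0 CPM (Sirt5), each close to absent from skin library 2 (adjusted p from 0.376 to 0.701). Sirt6, a chromatin-bound enzyme, stayed within 2-fold of the lymph node mean.

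The 2 skin libraries differed from each other more than the lymph node libraries did. The median absolute log2 difference over the 75 tested members was 1.29 between the skin libraries and 0.29 to 0.39 between pairs of lymph node libraries, and over all tested genes it was 1.18 and 0.41 to 0.50. A 4-fold or larger difference between the skin libraries was found for 28 members (37.3%; 38.0% of all tested genes), 19 higher in skin library 1 and 9 in skin library 2, whereas 2 members (Kdm5d and Setd6) differed that much between any pair of lymph node libraries (2.67%; 14.1% of all tested genes). Both skin libraries stayed within 2-fold of the lymph node mean for 18 members (24.0%; 19.4% of all tested genes).

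Loss of single genes from single skin libraries was part of this spread. Of 55 members with 20 CPM or more in every lymph node library, 3 lay under 1 CPM in the first skin library (Hdac3, Kdm1b and Setdb2), 6 in the second (Chd1l, Hdac10, Kmt2b, Setdb2, Sirt5 and Smarcd2) and 1 in both (Setdb2). These were 8 members in all (14.5%), where 17.5% of all genes at that level lay under 1 CPM in either skin library (6.96% for library 1, 13.6% for library 2 and 3.01% for both). The share among the members was close to that among all genes of that level.

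**Figure D4:**
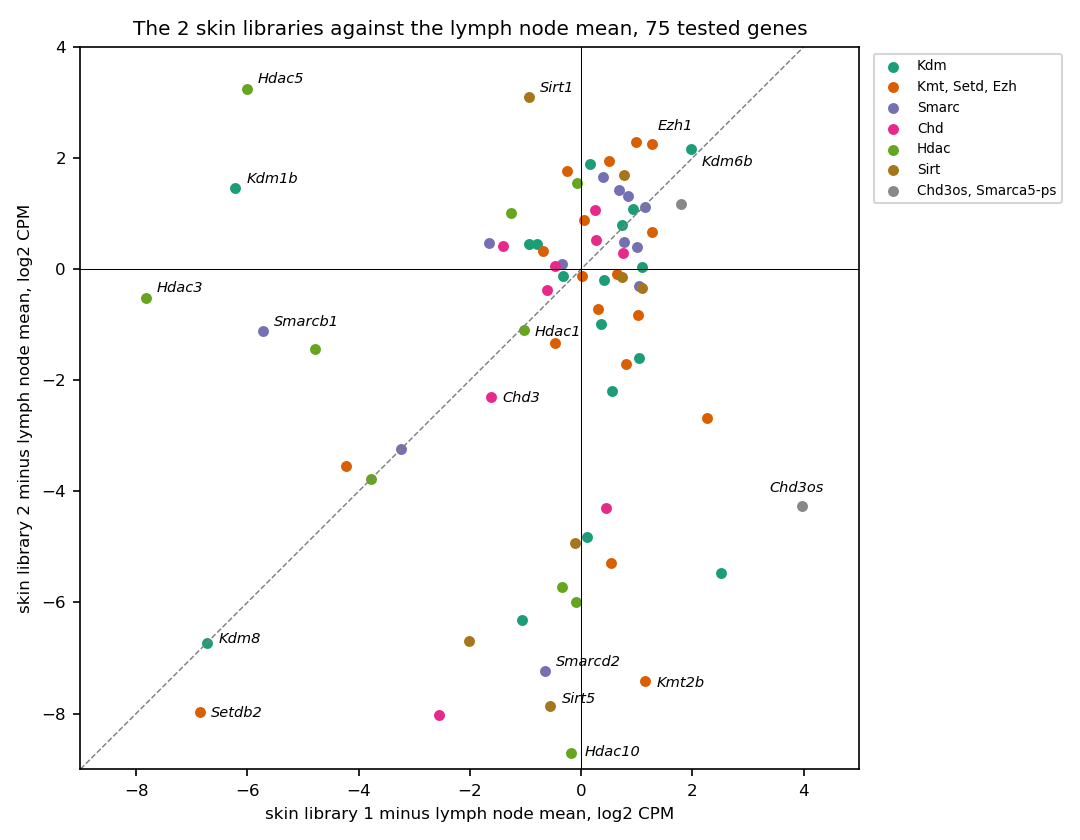
Each point is a tested member, with log2 CPM in skin library 1 (x axis) and skin library 2 (y axis) relative to the mean of the 3 lymph node libraries, colored by family; the dashed line marks equal values. Chd3, Hdac1, Ezh1 and Kdm6b lie near the line, while Hdac5, Kdm1b, Hdac10 and Kmt2b lie far from it.

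Calls depended on which skin library was kept. With skin library 2 alone, taken to vary as the lymph node libraries do, edgeR called 17 members higher and 25 lower of 77 tested, and with skin library 1 alone 9 higher and 15 lower of 77; of all genes 48.7 and 39.2% were called. When a lymph node library was left out, edgeR called 0 members (8 to 10 at an unadjusted p under 0.05) and 0 of all genes.

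Pairs of related enzymes were compared within each library as ratios of CPM per kb of exon, which do not depend on library size. Chd4 to Chd3 was 1.94, 2.59 and 1.60 in lymph node and 10.4 and 12.1 in skin. Smarca4 to Smarca2 was 3.37, 3.66 and 3.596 in lymph node and 0.704 and 1.82 in skin, and Hdac1 to Hdac2 4.35, 7.66 and 6.36 in lymph node and 3.08 and 0.941 in skin. In these 3 pairs the tissues did not overlap. Such separation is common with 3 and 2 libraries: of all single tested genes, 16.8% lay above all lymph node values in skin and 33.5% below. Ratios of other gene pairs were not examined. Ezh2 to Ezh1 was 1.29, 0.521 and 0.431 in lymph node and 0.479 and 0.0421 in skin, and Kdm6a to Kdm6b was 2.69, 0.818 and 0.909 in lymph node and 0.358 and 1.05 in skin, each with overlap. Kdm5c to Kdm5d was 1.61 and 8.39 in lymph node libraries 2 and 3 and 5.6 in skin library 1, and had no value where Kdm5d was at 0. Smarca5 to Smarca1 had no value, since Smarca1 had no count. With 3 and 2 libraries the smallest p of an exact two-sided permutation test is 0.1, and no test of the ratios was made.

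**Figure D5:**
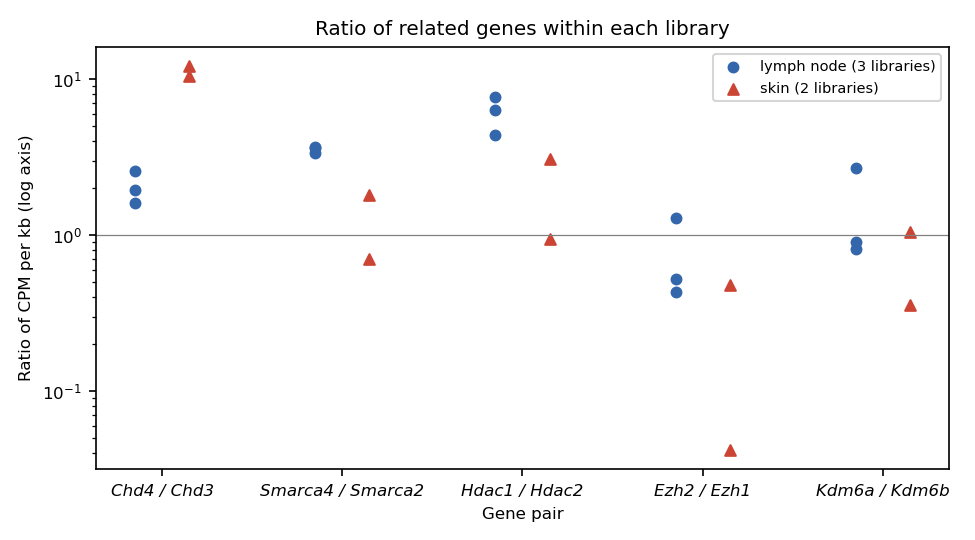
Ratio of CPM per kb of exon of the first to the second gene of a pair, on a log axis, in each lymph node library (circles) and skin library (triangles); the grey line marks equal levels. Chd4 to Chd3 is higher in both skin libraries (10.4 and 12.1) than in any lymph node library (1.60 to 2.59).

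Exon length was examined because many of these enzymes are long. The tested family genes had a median of 6954 exon bases, against 4411 over all tested genes. Over all genes the median log2 fold change was -0.45, -0.23 and -0.02 in the groups of short, middle and long genes of equal size (bounds 3272 and 5837 bases), and over the members it was -4.47 (n = 4), -0.16 (n = 23) and 0.14 (n = 46). Spearman's correlation of length with the log2 fold change was 0.21 over 73 members and 0.10 over 11342 genes, both across genes, which are not independent replicates. With an offset for exon length the median over the members moved from 0.02 to -0.28, and over all tested genes from -0.21 to -0.24. The member median was thus not above that of all genes with the offset. The log2 fold changes of Chd2, Chd9, Kdm5a, Kmt2c and Kmt2e turned from positive to -0.18, -0.28, -0.42, -0.41 and -0.05, none past the threshold with or without the offset.

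Other chromatin genes, from lists of partners and related enzymes that the naming rule does not take, were read in the same fit. Of 172 such genes, 163 were tested, and 2 rose, 7 fell and 154 did not pass (5.52%; 7.70% of all tested genes), with a median log2 fold change of 0.00. Ncor1, the corepressor that activates Hdac3, rose from 368, 330.4 and 344 CPM to 618 and 675 CPM (log2 difference 0.90 with SE 0.18, adjusted p = 0.0495 by edgeR). Ncoa6, a coactivator found with Kmt2 methyltransferases, rose from 52.8, 53.0 and 54.2 CPM to 241 and 158 CPM (log2 difference 1.90 with SE 0.33, adjusted p = 0.0460). Brd7, a bromodomain subunit of a SWI/SNF variant, fell from 97.0, 111 and 103 CPM to 17.0 and 22.1 CPM (log2 difference -2.41 with SE 0.45, adjusted p = 0.0473). Atf2, a transcription factor with reported acetyltransferase activity, fell from 71.8, 123 and 84.1 CPM to 1.68 and 2.99 CPM (adjusted p = 0.0381).
The other genes that fell were at or near 0 in skin. Smyd3 and Smyd5, SET and MYND domain methyltransferases, were at 72.8 ± 4.39 and 66.4 ± 24.2 CPM in lymph node (n = 3) with 1 count each in skin, ratios of 1514 (95% interval from counting error 271.5 to 59820) and 1391 (249.4 to 54960). Carm1, an arginine methyltransferase, Cbx8, a Polycomb subunit, and Bcl7a, a SWI/SNF subunit, had no count in skin and were at least 67.0, 45.3 and 89.0-fold lower (adjusted p from 0.0478 to 0.0491). By list, 1 of 28 tested Polycomb genes fell, as did 3 of 23 other methyltransferases, 1 of 18 acetyltransferases and 2 of 16 SWI/SNF subunits, and 1 of 12 genes of the Kmt2 complexes and 1 of 24 genes of the deacetylase complexes rose. Among 8 other demethylases, 18 other remodellers and 16 bromodomain readers 0 passed (0, 2 and 4 at an unadjusted p under 0.05). Their most abundant members were Jmjd1c (242 ± 60.8 CPM, n = 3, and 332 ± 38.5 CPM, n = 2), Atrx (949 ± 11.3 and 1023 ± 392 CPM) and Brd8 (231 ± 36.2 and 109 ± 120.1 CPM).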

How the data were processed

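Messenger RNA of sorted Tregs was measured in 3 lymph node and 2 skin libraries. Per the labels' protocols, RNA was column-purified and amplified with a SMARTer ultra-low-input kit. The deposited values are whole-number counts per gene symbol, not normalized. Per the submitters' processing notes, the tools were HTSeq 0.6.1, TopHat2 2.0.12, Bowtie2 2.1.0.0, CASAVA 1.8.2 and SAMtools 0.1.19.0, with mm10; the sources used here give no options or strand setting. The table's header was read as shifted by 1 cell. Its 5 summary rows, 78.3 to 80.7% of all counts (mostly alignments that were not unique), entered neither library sizes nor tests.

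Counts were tested with edgeR 4.0.16 (R 4.3.3; filterByExpr, minimum count 10; TMM; quasi-likelihood F test, Benjamini-Hochberg over 11437 genes). The SE is the log2 fold change divided by the square root of F. Log2 CPM used a prior count of 2. Alternatives were DESeq2 1.42.0, limma-voom (limma 3.58.1), other scalings, filters and dispersions, an exon length offset, a replicate block and each library left out. The functions were tested on simulated data. The pass conditions were read at dispersions below those of these data, so they do not measure power or false calls at the real spread. Gene models came from GENCODE M21 (GRCm38, which is mm10), matched for all 79 members (2 by an older symbol), and promoters from RefSeq. Libraries of a group were compared with each other, and none agreed within sampling noise.

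Named members were every member past the threshold, in each family the 2 of highest mean CPM and the largest rise and fall at an average log2 CPM of 4 or more, 7 pairs of related genes, and members without a count in 1 group at 10 CPM or more in the other; for partner genes, called genes or the most abundant. The members, lists and rules were chosen with earlier results of these data known. Others named beside them were chosen after their values were seen.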

Additional observations from a re-analysis of the deposited data

How the results depend on the processing

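In edgeR the count of members that fell was 2 with TMM, RLE and no scaling. Of all genes 7.70, 7.97 and 7.56% were called in these fits, in either direction. The count was 0 without a low-count filter, with a filter at a mean log2 CPM of 5, and with robust dispersions. Calls were also fewer over all genes there, at 2.21, 6.12 and 1.93%. With the exon length offset 3 of 75 members fell (4%, against 8.87% of all genes). DESeq2 called 3 members higher and 7 lower (13.0%, against 26%), and limma-voom 1 and 6 (9.33%, against 19.5%). Partner genes higher in skin numbered 1 without scaling, 14 in DESeq2, 6 in limma-voom, 0 without a low-count filter, 1 at a log2 CPM of 5 or more, 0 with robust dispersions and 1 with the length offset. Partner genes lower in skin numbered 17 in DESeq2, 12 in limma-voom, 3 without a filter, 4 at a log2 CPM of 5 or more and 3 with robust dispersions. The median log2 fold change of the members was 0.35 at a log2 CPM of 5 or more and -0.28 with the length offset, beside 0.02 and -0.24 over all genes tested.

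With a replicate block, 0 members passed (1 higher and 2 lower at an unadjusted p under 0.05), and partner genes passed 0 times in each direction. Of all 11437 genes tested in that fit 0.184% passed (11 higher and 10 lower), and 772 had an unadjusted p under 0.05. The member median was -0.28, beside -0.855 over all tested genes, and the adjusted p by edgeR was 0.712 for Kdm8 and 0.674 for Setdb2. Deviations of libraries of the same number had correlations of -0.025 and -0.024. The deviations of the 2 skin libraries mirror each other, so these values are not independent and cannot exclude a pairing. The numbers were not taken as pairs.

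Leaving out 1 library in turn gave 0 to 17 members higher and 0 to 25 lower of 74 to 77 tested. Partner genes numbered 0 to 22 higher and 0 to 46 lower of 161 to 165 tested. The member median was -0.21 to 0.23. All counts above 0 came from the fits without skin library 1 or 2, where 48.7 and 39.2% of all genes were called. Without any 1 of the lymph node libraries, 0% of all genes were called. The ranges thus rose and fell with the calls over all genes. Without skin library 1, Ezh2 turned to -1.74, with Hdac5 at 3.26 and Hdac7 at 0.99; without skin library 2, Hdac5 turned to -10.07 and Hdac7 to -1.28, with Ezh2 at 0.78. A lone skin library was assumed to vary like the lymph node libraries. The causes of these changes were not tested. Depth limits the members near 0 in skin, where 3 counts in a group correspond to 0.145 CPM.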
